A study of Mus musculus with 7 samples.

Results

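The 9 genes described here are transcription factor genes that divide the progenitors of the neural tube into domains from its dorsal to its ventral side. They were listed by name for their known domains in the neural tube, with no threshold on their values, though earlier results of these data were known when the list was made: Pax3, Pax7 and Msx1 as dorsal genes, Dbx1, Pax6 and Irx3 as genes of the intermediate domains, and Nkx6-1, Nkx2-2 and Olig2 as ventral genes. All 9 were among the 21813 genes tested of the mouse embryonic stem cell series. Of the 9, 8 encode homeodomain proteins, and Olig2 encodes a basic helix-loop-helix factor that is placed with them for its role in the ventral tube. The question put to the data was at which step of the culture each domain's genes were higher or lower, and whether the dorsal and the ventral genes moved together.

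Every library came from 1 mouse embryonic stem cell line, called Bry-GFP in the labels, so the values describe that line alone. Day 0 cells were kept on mouse embryonic feeder cells in 15% FBS with LIF at 1000 U/mL. Day 2 cells had spent 48 h in suspension without serum, seeded at 75000 cells/mL, and had formed embryoid bodies. Day 4 cells had then spent 48 h with Noggin (150 ng/mL), Wnt3a (25 ng/mL) and Activin A (9 ng/mL), a mixture meant to induce primitive streak, the embryonic source of mesoderm and endoderm. Day 6 cells had a further 48 h as aggregates with bFGF (10 ng/mL) in place of that mixture. Polyadenylated RNA was sequenced from 2 libraries each of days 0, 2 and 4 and from 1 library of day 6. The labels call the replicates biological. Nothing further says that they came from separate cultures, so the p-values measure the spread between these samples. No untreated culture was carried in parallel, so culture time and the added factors cannot be told apart.

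In the embryo, the ventral midline of the neural tube releases Sonic hedgehog, and the roof plate and the overlying ectoderm release bone morphogenetic proteins and Wnts. Progenitors read these opposed signals by turning on or off sets of homeodomain and helix-loop-helix factors, and pairs of these factors repress each other, which sharpens the borders between domains. Each domain then gives rise to its own neurons: commissural neurons dorsally, V0 interneurons from the Dbx1 domain, motor neurons from the Olig2 domain and V3 interneurons from the Nkx2-2 domain. Most of these genes also act in other tissues. Pax3 and Pax7 are also used in the dermomyotome and neural crest, Msx1 in many tissues that respond to bone morphogenetic proteins, Pax6 in the eye and pancreas, and Nkx6-1 and Nkx2-2 in the pancreas.

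A level is given throughout as the log2 of 1 plus scaled reads, after the quantile normalization found in the deposited table. From the steps between low values, the libraries held roughly 2700000 to 5610000 reads, and 3 reads gave a level between 1.45 and 2.30. Lower levels are not read as differences. Over 11800 well-measured genes, replicates correlated with r between 0.946 and 0.975 (Pearson, across genes, which are not independent). Exact zeros can be failed estimates in this table. Gapdh, a glycolysis gene that all cells use, stood at 6.19 and 7.13 (day 0), 1.85 and 3.44 (day 2), 3.51 and 7.08 (day 4) and 0 (day 6). A further limit is that 35 genes stood at 5 or more in 1 replicate of a day and at 0 in the other. A gene at 0 is therefore called listed at 0, and no fold is given against a day on which both libraries are listed at 0.

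The genes lie on 7 chromosomes of the GRCm38 assembly, the build named in the submitters' processing notes. In the GENCODE M21 annotation all are protein-coding genes. The deposited values are given per gene name and not per transcript, and how reads were assigned to genes is not stated. On the minus strand lie Pax3 (chr1:78101267-78197134), Pax7 (chr4:139737062-139833528), Msx1 (chr5:37820485-37824583), Dbx1 (chr7:49631499-49636849), Irx3 (chr8:91798525-91802067), Nkx6-1 (chr5:101658139-101664996) and Nkx2-2 (chr2:147177546-147194243). On the plus strand lie Pax6 (chr2:105668900-105697364) and Olig2 (chr16:91225457-91228677). Antisense genes overlap Pax6, Irx3 and Nkx2-2. No source used here says whether reads were counted by strand, so reads of these 3 genes cannot be told apart from reads of their antisense partners.

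Promoter windows of 300 bases, from 250 before to 50 after the annotated start, were found for 8 of the 9 genes in RefSeq's GRCm38.p6 annotation, with 2 starts for Pax6 and none for Pax3. Shown here are those of Dbx1 and Nkx6-1, the genes with the steepest rises from day 2 to day 4, and of Pax7, the dorsal gene that was lower on day 6 than on day 4. All 3 are on the minus strand and are printed 5′ to 3′ in the direction of transcription: Dbx1 at chr7:49636786-49637085, Nkx6-1 at chr5:101664662-101664961 and Pax7 at chr4:139832919-139833218. Capitals mark every match, on either strand, to the 6 motifs named after them.
Dbx1: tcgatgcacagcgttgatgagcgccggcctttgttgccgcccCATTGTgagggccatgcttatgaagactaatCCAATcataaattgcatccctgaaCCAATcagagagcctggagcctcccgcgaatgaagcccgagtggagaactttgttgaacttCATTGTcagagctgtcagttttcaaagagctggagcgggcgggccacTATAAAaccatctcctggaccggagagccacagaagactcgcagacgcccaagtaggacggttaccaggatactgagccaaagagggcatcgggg
Nkx6-1: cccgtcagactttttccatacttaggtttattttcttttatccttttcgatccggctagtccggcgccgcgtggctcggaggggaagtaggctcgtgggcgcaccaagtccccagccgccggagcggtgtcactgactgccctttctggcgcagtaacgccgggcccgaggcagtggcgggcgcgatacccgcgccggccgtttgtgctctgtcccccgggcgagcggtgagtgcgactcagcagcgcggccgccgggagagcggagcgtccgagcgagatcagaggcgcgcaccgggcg
Pax7: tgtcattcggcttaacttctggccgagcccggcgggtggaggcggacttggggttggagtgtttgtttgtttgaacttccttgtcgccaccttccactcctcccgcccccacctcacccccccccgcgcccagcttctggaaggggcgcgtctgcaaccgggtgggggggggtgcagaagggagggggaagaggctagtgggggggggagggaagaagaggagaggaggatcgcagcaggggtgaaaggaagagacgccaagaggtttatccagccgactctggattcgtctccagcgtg
The Dbx1 window held a TATA box (letters TATAAA), and so did 13.6% of the 32851 mouse promoter windows of the same length. It also held 2 CCAAT boxes (letters CCAAT), a motif found in 37.4% of all windows, and 2 matches to a SOX core (letters ACAATG), found in 12.6%. The printed Nkx6-1 and Pax7 windows held none of these, nor a homeodomain core (letters TAATTA, in 5.29% of windows), a GLI site (letters GACCACCCA, in 0.253%) or an E-box (letters CAGCTG, in 16.3%). Over the 9 windows of the 8 genes, 2 held the TATA box, 4 the CCAAT box and 2 the SOX core, and 0 held the homeodomain, GLI or E-box letters. The letters of no motif contain those of another. The windows also differed in base composition. The Nkx6-1 window was 67.3% G and C with 40 CpG dinucleotides, more than in 96.1% of all windows, and the Dbx1 window was 54.0% G and C with 15. The median window had 52.7% and 7. A match says only that the letters are there.

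Genes of the intermediate domains and of the ventral domains rose in these cultures along with the dorsal genes Pax3 and Pax7, and Msx1 did not pass the test at any step. Over all 4 days, 7 of the 9 genes changed (limma, moderated F test, Benjamini-Hochberg adjusted p between 0.00076 for Dbx1 and 0.0157 for Nkx2-2), and 28.6% of all genes tested did so. The exceptions were Msx1 (adjusted p = 0.319) and Olig2 (0.107). The highest day mean fell on day 4 for Pax3 and Pax7, on day 2 for Msx1, and on day 6, which is a single library, for the other 6. In bulk RNA, more cells of a type and more RNA per cell cannot be told apart.

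**Figure D1:**
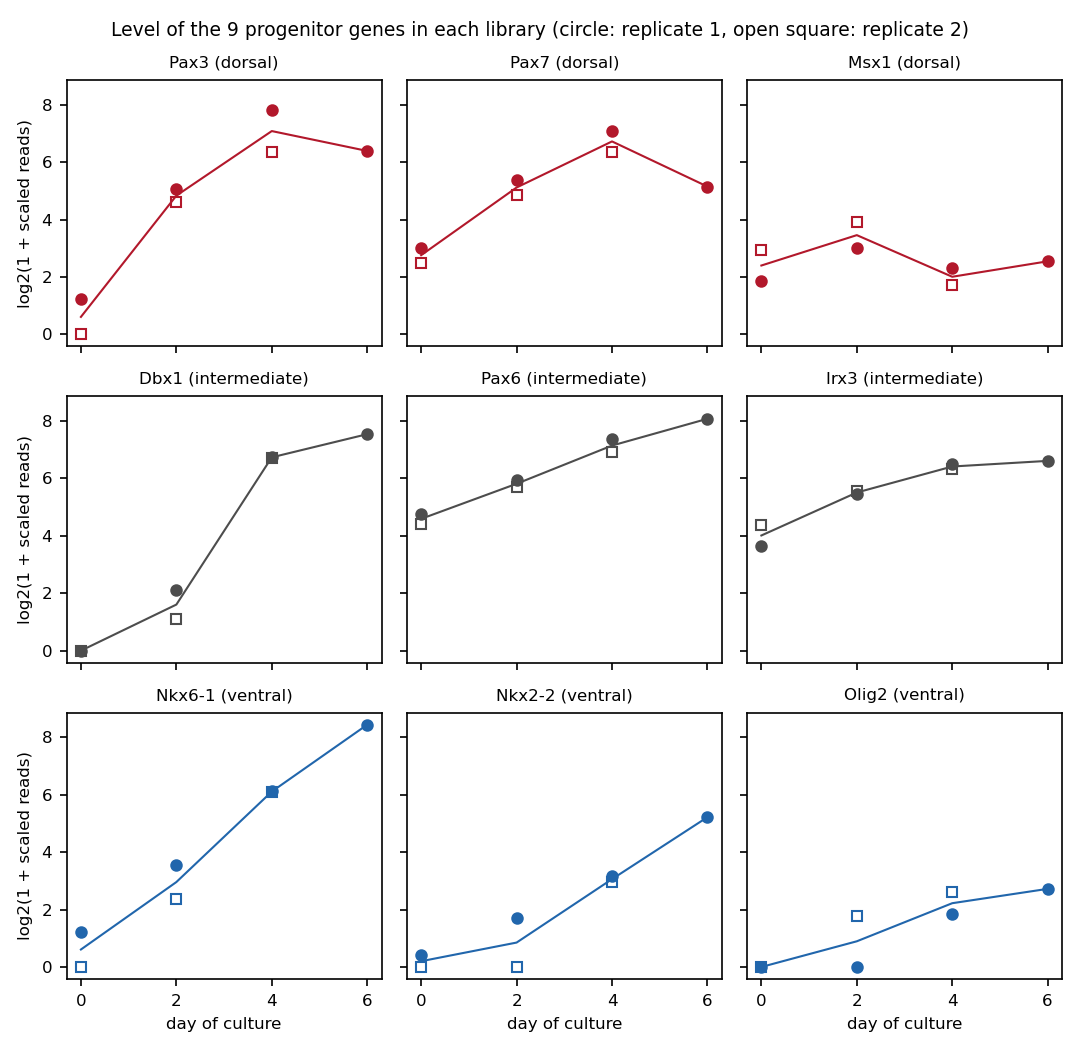
Level (log2 of 1 plus scaled reads) of each of the 9 genes by day of culture, with 1 point per library and a line through the day means, in 3 rows for dorsal, intermediate and ventral genes. Pax3 and Pax7 peak on day 4, Msx1 stays between 1.72 and 3.91, and Nkx6-1 climbs to 8.44 on day 6.

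The paired-box gene Pax3, needed for dorsal neural tube closure and neural crest, was near the bottom of the scale in stem cells. It stood at 1.22 and 0 (day 0), 5.07 and 4.60 (day 2), 7.80 and 6.36 (day 4) and 6.39 (day 6). The groups of days 0, 2 and 4 did not overlap, and the day 6 library fell between both day 4 libraries. Pax3 rose by 4.22 ± 0.61 (SE, log2) from day 0 to day 2 (limma, adjusted p = 0.00877), a step that becomes 3.26 when levels under 3 reads are set to that floor. The further 2.25 ± 0.61 from day 2 to day 4 did not pass (limma, adjusted p = 0.100). Its replicates on day 4 differed by more than those of Pax7.

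Pax7, the paralogue of Pax3 that marks the alar plate, stood at 3.02 and 2.50 (day 0), 5.38 and 4.85 (day 2), 7.08 and 6.37 (day 4) and 5.15 (day 6). The 4 days formed separate groups except that day 6 lay within the day 2 range. It rose by 2.36 ± 0.39 from day 0 to day 2 (limma, adjusted p = 0.0133) and by 3.96 ± 0.39 from day 0 to day 4 (limma, adjusted p = 0.00124). From day 4 to day 6 its level was 1.57 ± 0.48 lower (log2), a difference that did not pass (limma, adjusted p = 0.102).

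Msx1, a homeobox gene of the most dorsal progenitors and the roof plate, stood at 1.85 and 2.95 (day 0), 3.01 and 3.91 (day 2), 2.30 and 1.72 (day 4) and 2.55 (day 6). Day 2 was the highest group and day 4 the lowest, and days 0 and 4 overlapped. No step passed: the difference was 1.06 ± 0.61 for day 2 against day 0 (limma, adjusted p = 0.344) and -1.45 ± 0.61 for day 4 against day 2 (limma, adjusted p = 0.234). One day 4 library held 3 reads of Msx1 and the other fewer, so depth limits what can be said of it.

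Dbx1, a homeobox gene of the progenitors that form V0 interneurons, had the sharpest onset of the 9. It was listed at 0 in both libraries of day 0, stood at 2.12 and 1.09 on day 2 (3 reads and 1 read), then 6.75 and 6.71 (day 4) and 7.54 (day 6). Every later day lay above the one before it, and the day 4 replicates nearly coincided. From day 2 to day 4 Dbx1 rose by 5.13 ± 0.47 on the log2 scale, or 35.0-fold (limma, adjusted p = 0.00871). With the day 2 levels set to the floor of 3 reads, that step is 23.4-fold. The day 6 library was 0.81 ± 0.57 higher than day 4 (limma, adjusted p = 0.454).

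Pax6, a paired-box and homeobox gene that is graded across the intermediate and ventral tube and is also used in the eye and forebrain, was already measured on day 0. It stood at 4.76 and 4.43 (day 0), 5.93 and 5.69 (day 2), 7.38 and 6.91 (day 4) and 8.08 (day 6). Each day lay wholly above the day before. Pax6 rose by 1.22 ± 0.26 from day 0 to day 2 (limma, adjusted p = 0.0300) and by 1.33 ± 0.26 from day 2 to day 4 (limma, adjusted p = 0.0482), and was the only one of the 9 genes besides Nkx6-1 to pass at both steps. The day 6 value was 0.93 ± 0.32 higher than day 4 (limma, adjusted p = 0.131).

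Irx3, an Iroquois homeobox gene whose ventral edge borders the Olig2 domain, stood at 3.66 and 4.37 (day 0), 5.46 and 5.56 (day 2), 6.50 and 6.33 (day 4) and 6.61 (day 6). It rose by 1.50 ± 0.31 in the first step (limma, adjusted p = 0.0271) and had risen by 2.40 ± 0.31 by day 4 (limma, adjusted p = 0.00305). The second step, 0.91 ± 0.31, did not pass (limma, adjusted p = 0.156). Irx3 and Pax6 had the most similar profiles of all pairs among the 9 genes, with a root mean square difference of 0.47 between their levels after each was centred on its own mean over the 7 libraries. The antisense gene Irx3os had 0 listed in each library of day 0, and then 1.83 and 2.35 (day 2), 3.77 and 3.24 (day 4) and 2.97 (day 6).

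Nkx6-1, a homeobox gene of the broad ventral territory from which V2 interneurons, motor neurons and V3 interneurons arise, spanned more of the scale than any other of the 9 genes. It stood at 1.22 and 0 (day 0), 3.54 and 2.38 (day 2), 6.13 and 6.09 (day 4) and 8.44 (day 6). The 4 days did not overlap. Nkx6-1 rose by 2.35 ± 0.57 from day 0 to day 2 (limma, adjusted p = 0.0454) and by 3.15 ± 0.57, or 8.89-fold, from day 2 to day 4 (limma, adjusted p = 0.0400). The lone day 6 library was a further 2.33 ± 0.70 higher than day 4, which did not pass (limma, adjusted p = 0.101). Both day 0 libraries were below the level of 3 reads, and day 4 was 4.53 above that floor on the log2 scale.

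Nkx2-2, the homeobox gene of the most ventral progenitors next to the floor plate, came later and lower. It stood at 0.40 and 0 on day 0 (1 read and 0 reads), 1.70 and 0 on day 2 (2 reads and 0 reads), 3.18 and 2.94 on day 4, and 5.22 on day 6. It was above the level of 3 reads in 3 libraries, those of days 4 and 6. Nkx2-2 rose by 2.86 ± 0.68 from day 0 to day 4 (limma, adjusted p = 0.0281), or by 1.48 once levels under 3 reads are set to that floor. That call was lost without trend and robust weights (limma, adjusted p = 0.0515). Day 6 was 2.16 ± 0.84 above day 4 (limma, adjusted p = 0.170).

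Olig2, which directs motor neuron progenitors, was the least readable of the 9 genes. It was listed at 0 in both libraries of day 0 and in 1 of day 2, with 1.79 in the other (2 reads), and stood at 1.83 and 2.61 on day 4 (2 and 6 reads) and at 2.72 on day 6 (5 reads). Only 2 libraries were above the level of 3 reads. No step passed (limma, adjusted p = 0.501 for day 2 against day 0, 0.368 for day 4 against day 2 and 0.810 for day 6 against day 4). Day 4 against day 0 did not pass either (limma, adjusted p = 0.0754), but did with only the 4 libraries of those days in the fit (0.0304) and without either day 2 library (0.0490 and 0.0463).

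The steps can be set against all genes tested. From day 0 to day 2, 5 of the 9 genes rose (Pax3, Pax7, Pax6, Irx3 and Nkx6-1), and 5.76% of all genes did. Their median change was 1.50 (log2) against 0.05 over all genes, or 1.22 with levels under 3 reads at that floor. From day 2 to day 4, 3 of the 9 genes rose (Dbx1, Pax6 and Nkx6-1), and 1.45% of all genes did, with a median change of 1.61 against 0 over all genes. Day 4 against day 0 gave 7 rises of 9, all but Msx1 and Olig2, beside 11.3% of all genes, with medians of 2.86 and 0. That comparison shares its libraries with the first 2 and is not separate evidence.

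**Figure D2:**
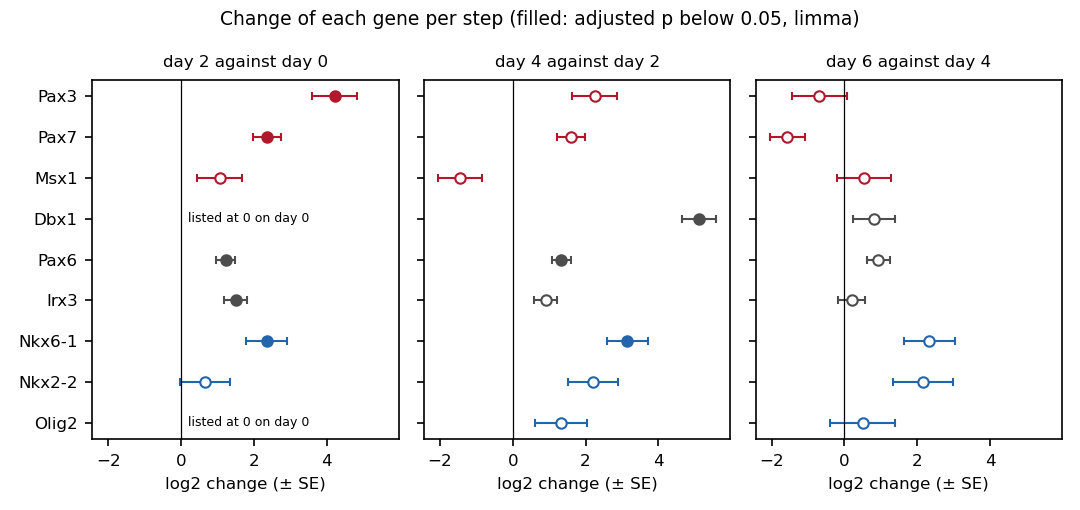
Change in level between successive days (log2, point) with its standard error (bar) for each of the 9 genes, filled where it passed the threshold. The rises that passed lie in the first 2 steps, and Dbx1 and Olig2 are left out of the first because they were listed at 0 on day 0.

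These calls rest on few libraries. Each call of the first 2 steps was lost when any 1 of the 6 libraries of days 0, 2 and 4 was left out, with limma adjusted p-values from 0.0551 to 0.319 for the first step and from 0.100 to 0.265 for the second. Of the 7 calls of day 4 against day 0, that of Dbx1 was lost only without day 4 replicate 1 (limma, adjusted p = 0.0503), that of Irx3 only without a day 4 library, and those of Pax3, Pax7 and Pax6 without either day 0 library or day 4 replicate 1. Those of Nkx6-1 and Nkx2-2 were lost without any 1 library of days 0 and 4. The direction of these 7 changes was the same in every such fit. The count of genes that changed over all days was 0 without either day 0 library or day 4 replicate 1, and 4 without day 4 replicate 2. Without trend and robust weights, the calls of Pax6, Irx3 and Nkx6-1 in the first step and of Pax6 and Nkx6-1 in the second were lost. In the first step, 2 of the 5 calls remained (Pax3 and Pax7) with only the 4 libraries of days 0 and 2 in the fit.

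From day 4 to day 6, 0 of the 9 genes passed (limma), and 4 had an unadjusted p under 0.05: Pax7, Pax6, Nkx6-1 and Nkx2-2. Over all genes 4.46% were called. The day 6 library was above both day 4 libraries for 7 of the 9 genes, with 38.0% of all genes above both, and below both for Pax7, with 29.1% of all genes below both. Among the 7, Msx1 (2.55 against 2.30 and 1.72) and Olig2 (2.72 against 1.83 and 2.61) lay near the level of 3 reads. Irx3 was above the higher day 4 library by only 0.11. The day 6 value is 1 library, which the fit assumes to vary like the others. With a pseudocount of 5, Nkx6-1 (limma, adjusted p = 0.0412) and Nkx2-2 (0.0466) were called higher on day 6, and in the first step the same setting ended the call of Nkx6-1 (0.0873).

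Ventral, intermediate and dorsal genes were also compared within libraries, as a description, by the log2 ratio of their scaled reads per kilobase of exon. That length joins all annotated exons of a gene and can exceed the length of its transcripts. Only libraries in which both genes were above 3 reads were used. Nkx6-1 over Pax7 was -1.03 and -1.83 (day 2), -0.05 and 0.62 (day 4) and 4.23 (day 6). The dorsal gene was thus the higher in both day 2 libraries, the day 4 libraries lay on either side of equality, and the ventral gene was the higher in the day 6 library. Nkx2-2 over Pax7 was -3.03 and -2.58 (day 4) and 1.10 (day 6), and Dbx1 over Pax7 was 1.16 and 1.84 (day 4) and 3.91 (day 6). Pax6 over Pax7 was 0.87 and 1.15 (day 0), -0.43 and -0.14 (day 2), -0.69 and -0.45 (day 4) and 1.97 (day 6). Per kb, Pax6 was thus below Pax7 on days 2 and 4 and above it on days 0 and 6. That order rests on exon lengths of 11.7 kb for Pax6 and 5.86 kb for Pax7. Without division by length, the level of Pax6 was above that of Pax7 in every library, by 0.56 and 0.84 (day 2) and 0.30 and 0.54 (day 4). For all 4 pairs the ratio was highest in the lone day 6 library, where Pax7 itself was below both day 4 libraries. The choice of dorsal gene matters there. Pax3 had 13.4 scaled reads per kb on day 6, above Nkx2-2 with 12.6 and below Nkx6-1 with 110.

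**Figure D3:**
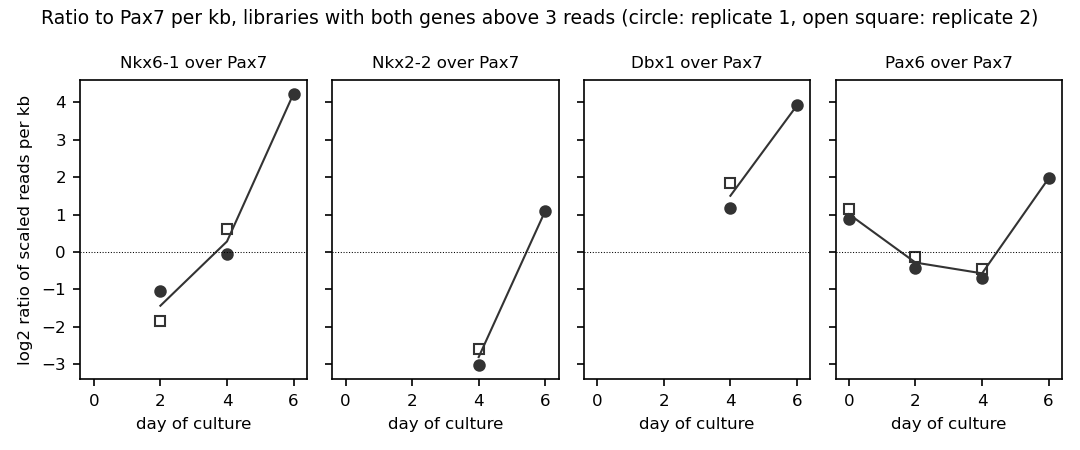
Log2 ratio of scaled reads per kb of Nkx6-1, Nkx2-2, Dbx1 and Pax6 to Pax7 within each library, by day, with 1 point per library in which both genes were above 3 reads and a line through the day means. Nkx6-1 lies below Pax7 on day 2, near it on day 4 and 4.23 above it on day 6.

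The same scale orders all 9 genes. On day 4 the mean was 50.5 scaled reads per kb for Dbx1, 30.6 for Irx3, 24.5 for Pax3, 21.7 for Nkx6-1 and 18.4 for Pax7. Pax6 followed with 12.2, and Nkx2-2, Olig2 and Msx1 were far lower at 2.56, 1.52 and 1.00. The place of Pax6 depends on its joined exon length of 11.7 kb, the longest of the 9 genes. Pax3 had 36.0 and 13.1 per kb in its day 4 libraries, a range that holds Irx3, Nkx6-1 and the Pax7 mean, so the order of these neighbours is not resolved. On day 6 Nkx6-1 led with 110 scaled reads per kb, followed by Dbx1 with 88.6, Irx3 with 35.0, Pax6 with 23.0, Pax3 with 13.4, Nkx2-2 with 12.6, Pax7 with 5.88, Olig2 with 2.21 and Msx1 with 1.56. Day 6 has no replicate to give a spread for that order.

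Other genes with dorsoventral domains, the pathways that act on them and markers of cell types were listed from general knowledge. The calls of these lists also rest on few libraries: of 165 changes of listed genes that passed, 6 held without each library of days 0, 2 and 4 in turn, all of them of day 4 against day 0, among them Sox3, Klf4, Zfp42, Lox and Postn, and 59 were lost without any 1 of them. Of 15 such progenitor factors, 14 were tested, and Olig1 was listed at 0 in every library. From day 0 to day 2, 4 rose and 0 fell: Olig3, Sp8, Irx5 and Msx3, with a median change over the list of 1.17. Olig3, a helix-loop-helix factor of the dorsal progenitors, rose by 4.15 and Sp8 by 2.80. Msx3, a homeobox gene found in the dorsal neural tube, was listed at 0 on day 0 and stood at 3.76 and 2.64 (day 2), 6.08 and 5.22 (day 4) and 3.19 (day 6). Like that of Pax7, its highest levels were those of day 4.

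From day 2 to day 4, Foxa2 and Lmx1b rose. Foxa2, the forkhead gene of the floor plate that also marks endoderm and node, stood at 2.43 and 0.51 (day 0), 1.70 and 3.43 (day 2), 6.65 and 6.78 (day 4) and 7.47 (day 6). It rose by 4.15 ± 0.78 between days 2 and 4 (limma, adjusted p = 0.0441). Day 4 against day 0 gave 9 higher and 0 lower of the 14, and no gene of the list passed from day 4 to day 6, where the median change was -0.01. Gsx1, a dorsal interneuron progenitor gene, stood at 4.36 and 3.08 (day 4) and 2.14 (day 6), and Lmx1a, a roof plate gene also used in the floor plate of the midbrain, at 3.89 and 2.99 and then 6.12. Among the dorsal genes, Msx3, Gsx1, Olig3, Msx2 and Pax7 had a day 6 value below both day 4 libraries, as did 29.1% of all genes. Gsx1 and Msx2 were at the level of 3 reads on day 6, and Gsx2 was above that level in no library. Pax3 and Lmx1b lay between the day 4 libraries, and Msx1 and Lmx1a above both. None of these day 6 differences passed.

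**Figure D4:**
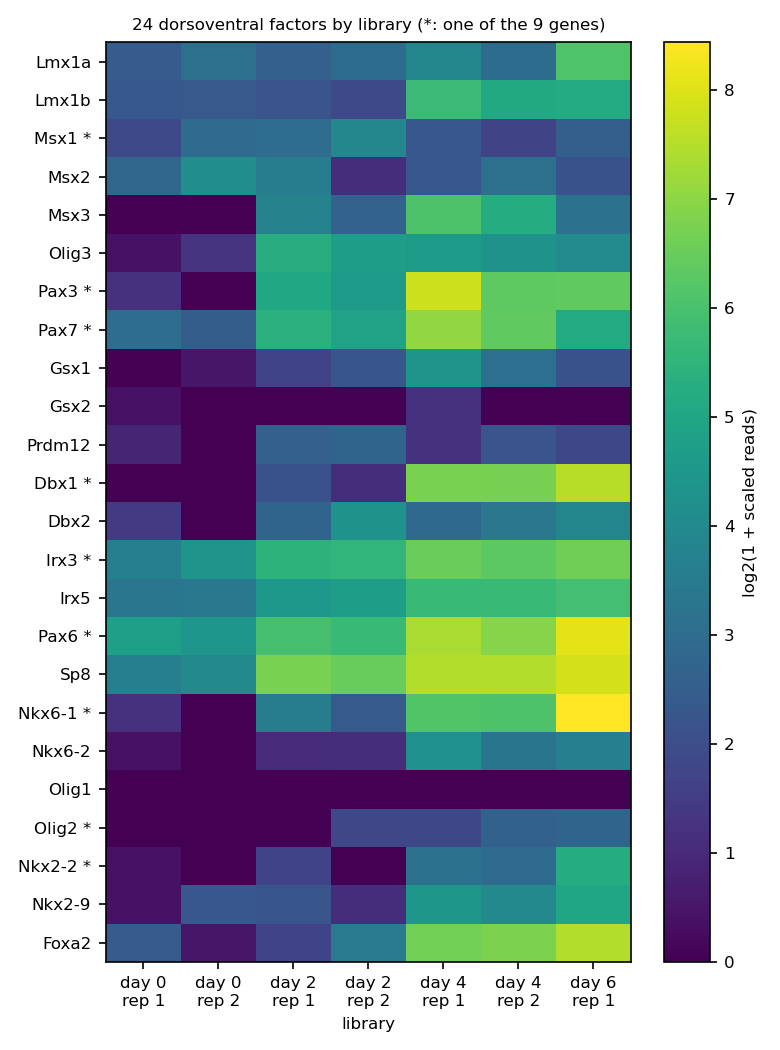
Level (log2 of 1 plus scaled reads) in each library of the other dorsoventral progenitor factors beside the 9 genes, with libraries as columns and colour as level. Foxa2 and Nkx6-1 are highest in the day 6 column, and Msx3 and Pax7 in the day 4 columns.

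The hedgehog pathway sets the ventral genes in the embryo, and 12 of its genes were listed. Shh, the ligand, stood at 0 and 0.51 (day 0), 2.91 and 0 (day 2), 6.09 and 5.52 (day 4) and 7.99 (day 6), and rose by 5.55 ± 0.91 from day 0 to day 4 (limma, adjusted p = 0.00756). Ptch1, its receptor and a target of the pathway, stood at 8.99 and 8.79 (day 0), 9.46 and 9.05 (day 2), 11.51 and 10.79 (day 4) and 11.72 (day 6). It rose by 1.90 ± 0.25 from day 2 to day 4 (limma, adjusted p = 0.0184), the step in which Dbx1, Pax6 and Nkx6-1 rose.

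Gli1, a transcription factor and target of the pathway, stood at 7.17 and 6.81 (day 0) and 7.49 and 7.13 (day 4) and passed in no comparison. Hhip, another target, had levels of 4.33 and 3.08 (day 4) and 6.24 (day 6). Of the 12 genes, 2 rose from day 0 to day 2 (Smo and Sufu), 2 from day 2 to day 4 (Ptch1 and Smo) and 7 from day 0 to day 4.

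On the dorsal side, 16 genes of bone morphogenetic protein and Wnt signalling were listed. Bmp4, a roof plate and ectoderm ligand, stood at 6.33 and 6.51 (day 0), 5.45 and 4.06 (day 2), 3.89 and 3.87 (day 4) and 2.72 (day 6), and fell by 2.54 on the log2 scale from day 0 to day 4 (limma, adjusted p = 0.0123). Its falling course ran opposite to that of Bmp7, which stood at 4.04 and 2.83 (day 0) and 7.22 and 7.37 (day 4) and rose by 3.86. Chordin (Chrd), a secreted antagonist of these ligands made in node and notochord, rose by 4.54 from day 2 to day 4 (limma, adjusted p = 0.0252). Bmp2 and Bmp5 also rose in that step, by 2.09 (limma, adjusted p = 0.0290) and 2.44 (0.0349). Bmp5 stood at 6.23 on day 6. Id1 and Id3, targets of the pathway, fell from day 0 to day 2 on the log2 scale, Id1 by a change of -2.71 and Id3 by one of -2.48. Over the list, 1 rose and 2 fell in the first step, 3 rose and 1 fell in the second, 1 fell in the third (Lef1), and 6 rose and 2 fell from day 0 to day 4.

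**Figure D5:**
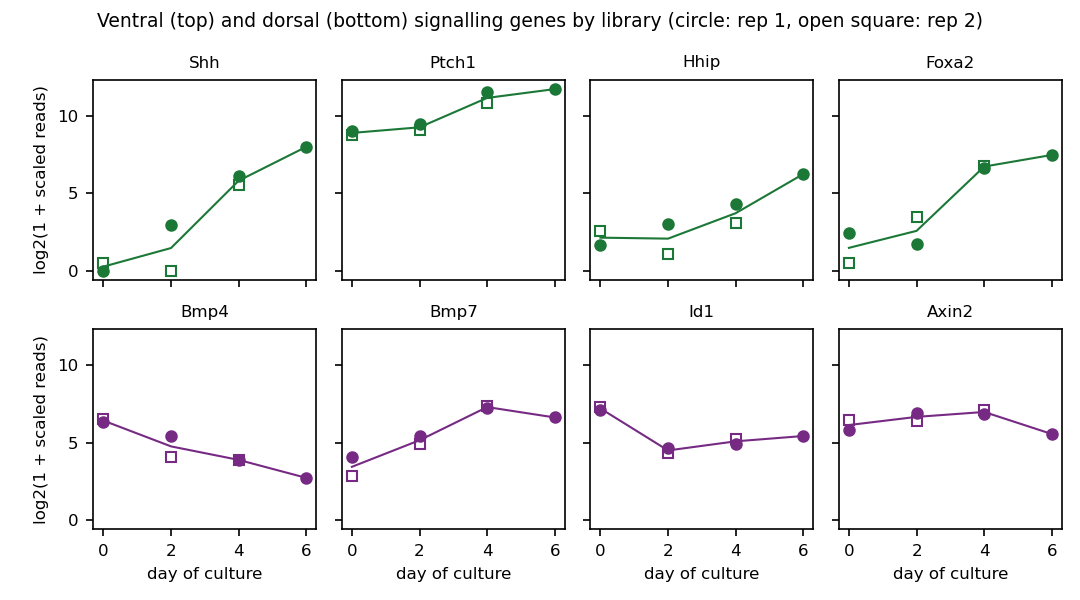
Level (log2 of 1 plus scaled reads) by day of Shh, Ptch1, Hhip and Foxa2 (top) and Bmp4, Bmp7, Id1 and Axin2 (bottom), with 1 point per library and a line through the day means. Shh climbs to 7.99 on day 6, while Bmp4 goes down to 2.72 and Bmp7 stands at 6.62.

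Retinoid and FGF signals bear on the timing of neural patterning, and 12 of their genes were listed. The retinoic acid binding proteins Crabp1 and Crabp2 rose by 3.61 and 2.61 from day 0 to day 2, with the receptor gene Rarb (1.69), and Etv4 fell by 0.97. In the second step Fgf4 and Etv5 fell. From day 4 to day 6, when bFGF was present, 3 fell and 0 rose: the FGF target genes Etv5 (log2 change -2.70) and Etv4 (-2.03), and the receptor gene Rarg (-1.66).

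The neurons that these domains give rise to were sparsely measured. Of 14 markers 13 were tested, and Barhl1 was listed at 0 throughout. Isl1, a marker of motor neurons and dorsal interneurons that pancreas, heart and hindgut progenitors also express, was listed at 0 on day 0, stood at 1.86 and 2.25 (day 2), 2.01 and 2.19 (day 4) and 6.60 (day 6), a rise of 4.50 ± 0.60 from day 4 (limma, adjusted p = 0.0219). Sim1, a V3 interneuron gene, also rose in that step, by 3.49 (limma, adjusted p = 0.0483). That call was lost with a replicate block, without trend and robust weights, and without any 1 library of days 0, 2 and 4. Evx1, a V0 interneuron gene, was at 2.94 in both day 4 libraries and was listed at 0 in the lone day 6 library, where a zero can be a failed estimate. That difference passed (limma, adjusted p = 0.0483) but was lost with a replicate block (0.0804) and without any 1 library of days 0, 2 and 4. Lbx1, a gene of dorsal interneurons and migrating muscle precursors, was listed at 0 on days 0 and 2 and stood at 3.98 and 2.94 on day 4. Mnx1 and Lhx3, which mark motor neurons, passed in no comparison, and Lhx3 was above 0 in 1 library.

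Markers of neural progenitors rose in sum from each day to the next. Their summed level over 8 genes was 1626 and 1533 scaled reads on day 0, 2457 and 1973 (day 2), 4661 and 3835 (day 4) and 7110 (day 6). Of the 8, 4 rose in the first step, 2 in the second and 6 from day 0 to day 4, among them Sox1 (by 5.51), Fabp7 (by 7.40) and Hes5. Hes5 was listed at 0 on day 0 and stood at 6.36 and 5.90 on day 4. Sox2 (log2 change -0.007) and Pou3f2 (3.60) did not pass from day 0 to day 4, and Pou3f2 stood at 1.77 and 7.05 on day 0. Along the other axis of the tube, markers moved in both directions. Of 8 hindbrain and spinal cord genes, 2 rose in the first step (Hoxb1 by 4.52 and Hoxa2 by 3.50) and 2 fell (log2 changes of -4.64 for Egr2 and -3.81 for Hoxc6), with a median change of -0.09. Of 8 forebrain and midbrain genes, 2 rose (Otx2 by 2.28 and En2 by 1.95) and 1 fell (Emx2, -2.97), with a median change of 0.51.

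Markers of other tissues that use the same genes were also measured. Feeder fibroblast markers summed to 17722 and 20104 scaled reads on day 0 and to between 290 and 1108 on later days, and all 8 fell in the first step, so the day 0 levels of the 9 genes come from RNA that held fibroblast transcripts. Msx1, Irx3, Pax6 and Pax7 were above 3 reads in both day 0 libraries, and the share of feeder cells in those levels was not tested. Markers of presomitic mesoderm and dermomyotome, where Pax3 and Pax7 are used, summed to between 34.9 and 41.3 on day 4, when Pax3 and Pax7 were highest, and to between 73.8 and 112 on the other days. The defining gene Msgn1 was listed at 0 in every library, and Myod1 was under 3 reads in every library. Neural crest markers summed to 391 and 548 (day 0), 156 and 192 (day 2), 204 and 185 (day 4) and 344 (day 6). Sox10 was above 3 reads in 1 library of day 2. Ets1 (7.61 and 8.27) and Snai2 (6.12 and 6.64) stood highest of the list on day 0, and both fell in the first step. Sox9 rose by 2.33 from day 2 to day 4 (limma, adjusted p = 0.0281) and stood at 6.89 on day 6. Foxd3 fell from day 4 to day 6, where it was listed at 0. Neither of these 2 changes passed with a single library omitted. That of Sox9 also failed without trend and robust weights, and that of Foxd3 with a pseudocount of 5.

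Endoderm markers moved in the direction of the ventral genes. The 8 genes of pancreas and gut endoderm summed to 29.9 and 58.5 scaled reads on day 0, 36.6 and 61.9 (day 2), 135 and 128 (day 4) and 232 (day 6). Foxa1 stood at 5.82 and 5.18 (day 4) and 7.63 (day 6), and Sox17 at 5.69 and 5.74 and then 4.33. Over the list, 3 rose and 0 fell from day 0 to day 4: Foxa1, Sox17 and Neurog3, a pancreatic endocrine gene also used in neural progenitors, which stood at 3.90 and 3.38 on day 4 and rose by 2.66 (limma, adjusted p = 0.0277). Of the other pancreas genes, Ins2 was listed at 0 in every library, Ptf1a in 6 of 7, and Pdx1 was under 3 reads in all. Which of these tissues holds the Nkx6-1, Nkx2-2, Foxa2 and Shh transcripts was not tested. Eye and lens markers summed to 115 and 132 on day 0 and to between 25.3 and 42.2 later, with Cryaa and Foxe3 listed at 0 in every library. Surface ectoderm markers summed to 461 and 244 (day 0), 355 and 311 (day 2), 968 and 961 (day 4) and 438 (day 6). Of these, Krt18 and Krt8, keratins of simple epithelia, rose by 2.97 and 2.88 from day 2 to day 4 and Grhl2 fell, while Krt5 was listed at 0 in every library. Pluripotent markers summed to 14020 and 12370 (day 0), 4250 and 4331 (day 4) and 787 (day 6), and 7 of the 8 fell in the last step.

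The genes most like each member in profile were sought among 11089 named genes with a mean of at least 11 scaled reads, by the root mean square difference of centred levels over the 7 libraries. This was done for the 6 members whose day means spanned at least 3 on the log2 scale and that passed 3 reads in at least 2 libraries. The closest to Pax7 was Wnk2, a kinase gene, at 0.20 (Pearson r = 0.999), followed by Sergef and Celsr1. Pax6 was closest to Cnksr2 (0.18), Sept3 and Adgrv1. These 2 members had closer neighbours than the others.

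Dbx1 and Nkx6-1 shared their nearest gene, Frem1, an extracellular matrix gene, at 0.61 and 0.47. Pantr1 and Pkd1l1 were next for Dbx1, and Tox2 for Nkx6-1. Pax3 was closest to Dach1 (0.57), Pcdh8 and Crb2, and Nkx2-2 to Abcd2 (0.39), Dpp6 and Pygl. A similar course over 7 libraries of 1 culture series is a description and says nothing of shared function.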

How the data were processed

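The members and the gene lists were chosen with earlier results of these data known. One deposited table of 30590 rows and 7 value columns was used, with 0 columns left unmapped. A column whose name has the letter O for a zero was read as day 0 replicate 2. The authors deposited natural log values, of 1 plus scaled reads. That unit was inferred from the spacing of low values, where the step from 4 to 8 reads was 0.932 to 1.05 times that of a natural log, and no source used here states it. The sorted columns agreed within 0.01 over the 9273 highest ranks, so they had been quantile normalized. Per the submitters' processing notes, GRCm38 was the build used. Aligner, counting tool and annotation were not given in the sources used here. Values were divided by the natural log of 2, and fold changes on the scale of 1 plus scaled reads understate the change of low genes. Left out were 103 foreign sequences (spike-ins, reporters and selection genes) and 8674 genes listed at 0 throughout.

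Differences were tested with limma-trend and robust empirical Bayes (limma 3.58.1, R 4.3.3) on all 7 libraries, with 1 mean per day, 3 residual degrees of freedom, two-sided tests and Benjamini-Hochberg adjustment over the 21813 genes, at a threshold of 0.05. The fit was tested on simulated data. All 9 genes are named whatever their result. Of each list, genes that passed are named, up to 4 per comparison by size, with any that the account of a member needs. Nearest genes were the 3 closest to each member. A few values of genes that are not members are not reported here. Alternatives were a replicate block, a filter at a level of 2 in at least 2 libraries, a filter at a mean of 11 scaled reads, centring on each library's median, a pseudocount of 5, no trend or robust weights, only the libraries of the days compared, and leaving out each library in turn. Day 6 has 1 library and could not be left out of its comparison.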

Additional observations from a re-analysis of the deposited data

How the results depend on the processing

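Of 447 alternative values for the 36 changes of the 9 genes, 354 kept their direction and side of the threshold, 12 newly passed, 78 no longer passed and 3 reversed. Over the fits without 1 library, the change of Nkx2-2 from day 0 to day 2 ran from -0.20 (without day 2 replicate 1) to 1.50 (without day 2 replicate 2). That of Pax3 from day 4 to day 6 ran from -1.42 (without day 4 replicate 2) to 0.030 (without day 4 replicate 1), and that of Msx1 from day 0 to day 4 from -0.94 (without day 0 replicate 1) to 0.16 (without day 0 replicate 2). None of these 3 passed in any fit that reversed it. The cause was not tested.

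Without trend and robust weights, 2 genes in place of 5 passed from day 0 to day 2 and 1 in place of 3 from day 2 to day 4, and 6 in place of 7 for day 4 against day 0. With only the libraries of the days compared, the counts were 2 and 5. From day 2 to day 4, 5 passed under the low-value filter and 5 under the mean-level filter. From day 4 to day 6, 1 passed under the mean-level filter (Nkx6-1) and 2 with a pseudocount of 5, a setting that left 4 in place of 5 from day 0 to day 2. With 1 library left out, the number of the 9 genes that passed was 0 to 0 in each of the 3 steps, 0 to 8 for day 4 against day 0 and 0 to 7 over all days. Such fits have fewer samples. Over all genes, calls from day 2 to day 4 numbered 782, or 335 without trend and robust weights and 1549 under the low-value filter. From day 4 to day 6 they numbered 972, or 2200 under the mean-level filter, and from day 0 to day 2 2609, or 1609 without trend and robust weights. With 1 library left out, no gene was called from day 2 to day 4, and 3511 to 5139 had an unadjusted p under 0.05 (limma).

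Deviations from the day means of samples with the same replicate number correlated with r = -0.06 for days 0 and 2, -0.07 for days 0 and 4 and 0.22 for days 2 and 4. These values cannot decide whether the numbers pair the samples across days, since a pairing need not leave a shared deviation. The column names give libraries of the same replicate number the same code, and no source used here states its meaning. With a replicate block, the counts of the 9 genes were 5, 3, 0 and 7, as without it, and calls over all genes from day 4 to day 6 numbered 606. Depth limits Msx1, Nkx2-2 and Olig2, which lay near the level of 3 reads on most days.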
